A study of Mus musculus with 60 samples.

Results

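This account compares the hippocampus of mice bearing melanoma cells labelled cachectic (CAC) with that of mice bearing melanoma cells labelled non-cachectic (NCAC), 2 wk after the injection. The 9 libraries were taken by name, those of CAC at 2 wk (n = 4) and those of NCAC at 2 wk (n = 5), out of 60 in the series. The other libraries are the same tumour groups at 4, 6 and 8 wk and mock-injected mice (Con) at all 4 times, of which the 5 Con libraries of 2 wk are set beside the tumour groups here. All mice were labelled female and aged 2 months, and all samples hippocampus. Different strains are named for the mice, C57BL6/J by the sample labels and NCI Ath/nude by the design text, and the second is a host without a normal set of T cells. The extract protocol mentions LLC cells, a lung carcinoma line that matches no group. The melanoma lines are not named, and no body weight was used here, so CAC and NCAC describe the cells injected and not a measured loss of weight. CAC holds the replicates numbered 1, 2, 4 and 5, and NCAC and Con those numbered 1 to 5. The labels speak of biological replicates without saying that each library is another mouse, so a p-value here speaks of the spread among libraries, which may be technical.

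Cachexia is a wasting syndrome of advanced cancer in which muscle and fat are lost while food intake, stress hormones and inflammatory signals change. The hippocampus, a seat of memory, carries many receptors for corticosteroid hormones, and its astrocytes and vessels respond to circulating hormones, fuels and cytokines. The comparison of the 2 tumour groups asks whether hippocampal RNA already differs at the earliest time between mice given cells labelled cachectic and mice given cells labelled non-cachectic.

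The authors deposited expression as TPM, reads per unit of gene length as a share of each library's total. Whole reads could be recovered from the steps in these values and gave 34728284 to 38179252 reads in each of the 9 libraries. The test covered the 15608 genes that reached 1 TPM in 4 libraries or more. Differences are CAC minus NCAC of log2(TPM + 0.5), where the pseudocount makes the fold of weakly expressed genes look smaller, with the standard error (SE) and p from limma fitted over all 60 libraries. Adjusted p-values follow Benjamini and Hochberg over all genes tested, with a threshold of 0.05.

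Markers of the tissue were present in all 9 libraries. The 10 markers of CA1 pyramidal neurons had a mean level of 5.56 to 5.93 (log2) in CAC libraries and 5.89 to 6.01 in NCAC libraries. Prox1, the transcription factor of dentate granule cells, lay between 51.0 and 61.8 TPM in CAC and between 48.5 and 67.2 TPM in NCAC. Of the melanoma markers, Mlana was at 0 in all 9 libraries and Tyr was at most 0.0293 TPM. The 9 genes of the melanoma and melanocyte list summed to 255 to 324 TPM in CAC and 269 to 279 TPM in NCAC. Con had 261 to 304 TPM. All 5 tested members had a positive difference, with a median of 0.14. Cd3e, which marks T cells, was at 0 in all 4 CAC libraries and in 4 of 5 NCAC libraries. The 14 genes of neutrophils, T and B cells summed to 27.6 to 47.8 TPM in CAC and 25.6 to 32.2 TPM in NCAC. Neither list was therefore silent.

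Among the libraries of 2 wk, CAC replicate 1 stood apart by markers of neighbouring brain regions. Its 12 striatum markers summed to 1909 TPM, against 200 to 222 TPM in the other 3 CAC libraries, 176 to 199 TPM in NCAC and 184 to 215 TPM in Con. The dopamine receptor genes followed: Drd1 was at 65.2, 4.42, 5.49 and 5.46 TPM in CAC replicates 1, 2, 4 and 5, and Drd2 at 70.3, 2.92, 4.06 and 5.61 TPM. Its 12 thalamus markers summed to 638 TPM, against 239 to 315 TPM in the other CAC libraries, 178 to 300 TPM in NCAC and 173 to 242 TPM in Con. Choroid plexus markers were low in the same library, with 345 TPM against 3861 to 12180 TPM in the other CAC libraries and 980 to 4969 TPM in NCAC. Every result below is therefore also given without CAC replicate 1 where it rests on that library. Some libraries of 4 wk shared the striatum trait. CAC replicates 1 and 4 and Con replicate 2 at 4 wk lay 3.88, 1.79 and 3.94 (log2) above the median in striatum markers. CAC replicate 1 at 2 wk lay 3.62 above it. The median difference CAC minus NCAC of the striatum list was 1.00 at 4 wk, so both the 2 wk and the 4 wk contrast hold striatum-rich CAC libraries.

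**Figure D1:**
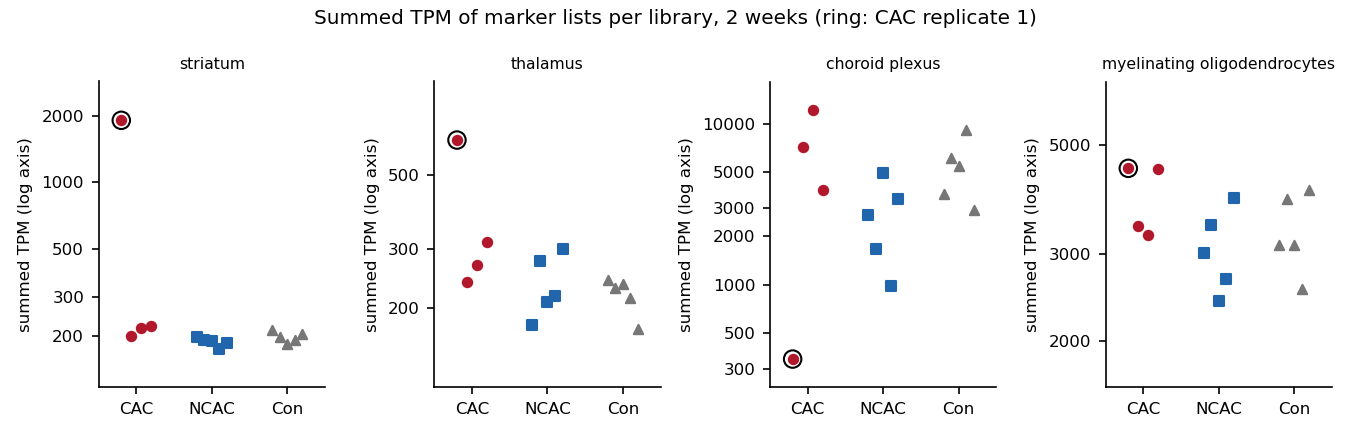
Summed TPM of marker lists (log axis) in each library at 2 wk, with CAC left of NCAC and Con; each point is a library and CAC replicate 1 is ringed. That library reaches 1909 TPM for striatum markers and drops to 345 TPM for choroid plexus markers, while the myelin list overlaps between the groups.

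No gene differed between CAC and NCAC at 2 wk past the threshold. Limma called 0 of 15608 genes (0%), with a smallest adjusted p of 0.437, and limma's voom on the recovered reads also called 0. At an unadjusted p under 0.05 there were 1083 genes (6.94%), 782 higher in CAC (5.01%) and 301 lower (1.93%), and voom gave 1031. The balance of directions depended on the scaling: median-of-ratios scaling gave 568 higher and 515 lower, and removal of GC and length trends 472 higher and 667 lower. Without CAC replicate 1 the count was 0 again, with 760 genes at an unadjusted p under 0.05 (4.87%); without NCAC replicate 2 it was 1707. Leaving out CAC replicate 2 gave the only calls among the alternatives run, 2 genes, Grid2ip and Tcf7l2, both with their highest value in CAC replicate 1.

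The groups were separated without overlap in 334 genes (2.14%): all 4 CAC libraries lay above all 5 NCAC libraries in 243 genes (1.56%) and below them in 91 (0.583%). Of the 334, 156 also had an unadjusted p under 0.05 without CAC replicate 1, where 4.87% of all genes did. Since the 334 were picked on these same libraries, the 156 are no separate support. The sizes were small for most genes. The median difference was 0.02 over all genes tested, and the median of its absolute size 0.08, against a median SE of 0.10. The 95% interval of the difference lay within 2-fold for 94.8% of genes and within 1.5-fold for 81.7%. The fitted difference exceeded 2-fold in 64 genes, and in 62 without CAC replicate 1.

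**Figure D2:**
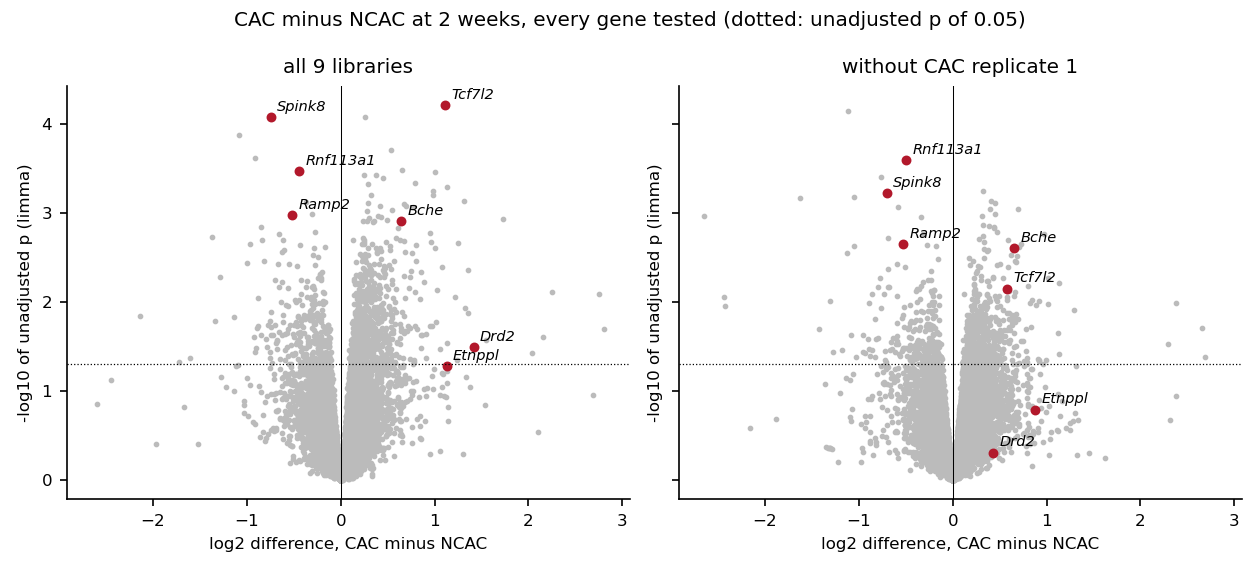
Difference CAC minus NCAC at 2 wk on the log2(TPM + 0.5) scale (x axis) against the unadjusted limma p (y axis, minus log10) for the 15608 genes tested, with all 9 libraries on the left, without CAC replicate 1 on the right and some named genes marked. No gene passes the adjusted threshold in either panel; with all libraries Spink8 lies at -0.74 and Tcf7l2 at 1.11.

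Among genes lower in CAC, Spink8 had the smallest p. It encodes a Kazal-type inhibitor of serine peptidases and is one of the markers of CA1 pyramidal neurons; it lies on chromosome 9 (chr9:109812280-109826633, plus strand, mm10). CAC replicates 1, 2, 4 and 5 had 34.3, 43.7, 28.5 and 47.0 TPM, against 70.2, 66.7, 73.4, 50.0 and 59.5 TPM in NCAC replicates 1 to 5 and 78.9 to 91.9 TPM in Con. All CAC libraries lay below all NCAC libraries, and all NCAC libraries below all Con libraries. The difference was -0.74 ± 0.17 (95% interval -1.09 to -0.39, unadjusted p = 8.38e-05, adjusted p = 0.437 by limma) and -0.70 without CAC replicate 1. The other 9 CA1 markers were closer together. Fibcd1, a chitin-binding receptor of CA1 neurons, differed by -0.17 ± 0.11 (interval -0.38 to 0.04) and Gpr161, a receptor of primary cilia, by -0.23 ± 0.16 (-0.56 to 0.09).

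Several other genes were lower in every CAC library than in any NCAC library. Rnf113a1, a RING finger protein, had 7.58, 7.06, 6.20 and 6.33 TPM in CAC, against 9.67, 8.96, 9.25, 9.86 and 9.28 TPM in NCAC. Its difference was -0.45 ± 0.12 (interval -0.68 to -0.21, adjusted p = 0.504 by limma), and -0.50 without CAC replicate 1. Ube2g2, a ubiquitin-conjugating enzyme of endoplasmic-reticulum-associated degradation, had 70.9, 68.5, 60.7 and 68.4 TPM in CAC and 86.0, 82.4, 80.7, 80.2 and 86.3 TPM in NCAC, a difference of -0.31 ± 0.09 (-0.49 to -0.13). Both groups were tight for this gene, but 63.5 to 78.7 TPM in Con overlapped CAC. Anks3 (-0.28 ± 0.08), Crybb3, a crystallin (-0.65 ± 0.20), and Cfap100, a cilium protein (-0.43 ± 0.13), were also lower without overlap. Their adjusted p-values were 0.555 by limma.

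Ramp2, which turns the calcitonin-like receptor of endothelium into an adrenomedullin receptor, had 11.96, 12.8, 9.44 and 12.9 TPM in CAC and 14.7, 15.6, 16.3, 18.8 and 19.99 TPM in NCAC. The difference was -0.52 ± 0.15 (interval -0.82 to -0.22, adjusted p = 0.504 by limma) and -0.53 without CAC replicate 1; Con lay between the groups and overlapped both, at 12.7 to 17.4 TPM. The remaining genes of this side had a wider spread. Pdcd5, named for programmed cell death, had 5.41, 3.43, 6.59 and 9.81 TPM in CAC and 14.8, 8.51, 16.9, 10.4 and 17.7 TPM in NCAC, a difference of -1.09 ± 0.26, and CAC replicate 5 lay within the NCAC range. Lsm7, of the LSm ring that binds RNA ends, differed by -0.84 ± 0.26, Abracl by -0.37 ± 0.10 and Lgr6, a receptor for R-spondins, by -0.97 ± 0.30, with overlap in each. Mettl5os is an antisense transcript whose reads cannot be told from those of its partner, since the use of strand in counting is not given in the sources used here. Expression relative to the other libraries moved with gene length by 0.11, 0.15, 0.06 and 0.03 (log2 per doubling of length) in the CAC libraries and by 0.03, 0.14, -0.02, 0.03 and 0.05 in the NCAC libraries. With the trend on GC content and length removed, Lsm7 differed by -0.64, Abracl by -0.27 and Pdcd5 by -1.11.

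Among genes higher in CAC, Bche, the esterase butyrylcholinesterase, had 4.67, 3.53, 6.50 and 5.03 TPM in CAC and 2.91, 3.09, 2.41, 2.80 and 3.45 TPM in NCAC, a difference of 0.64 ± 0.19 (0.27 to 1.02) and 0.66 without replicate 1. Con had 5.44, 5.45, 5.21, 2.55 and 3.15 TPM and spanned both groups.

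Slc1a2, the main glutamate transporter of astrocytes, had 1228, 1404, 1295 and 1190 TPM in CAC and 969, 1081, 1039, 1012 and 1113 TPM in NCAC. The groups did not overlap, and the difference was 0.29 ± 0.11 (interval 0.07 to 0.52, adjusted p = 0.635 by limma), 0.31 without CAC replicate 1; Con ranged from 966 to 1218 TPM. Gja1, the connexin of astrocyte gap junctions, had 311, 306, 307 and 315 TPM in CAC and 268, 290, 283, 277 and 294 TPM in NCAC, a difference of 0.13 ± 0.08 (-0.03 to 0.29). Oxsr1, a kinase that sets the activity of cation-chloride cotransporters, had 50.7, 45.8, 46.2 and 47.5 TPM in CAC and 40.2, 42.5, 37.6, 36.8 and 43.1 TPM in NCAC (0.25 ± 0.07). Fam134b, a receptor for turnover of the endoplasmic reticulum by autophagy (0.26 ± 0.06), Gtf2ird1, a transcription factor (0.45 ± 0.12), Tmem164 (0.37 ± 0.10), Det1 (0.29 ± 0.08) and Pld5 (0.99 ± 0.27) were similar in kind. Fam134b overlapped between the groups and the other 4 did not. Without CAC replicate 1 these 5 differences were 0.19, 0.37, 0.26, 0.28 and 0.98.

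**Figure D3:**
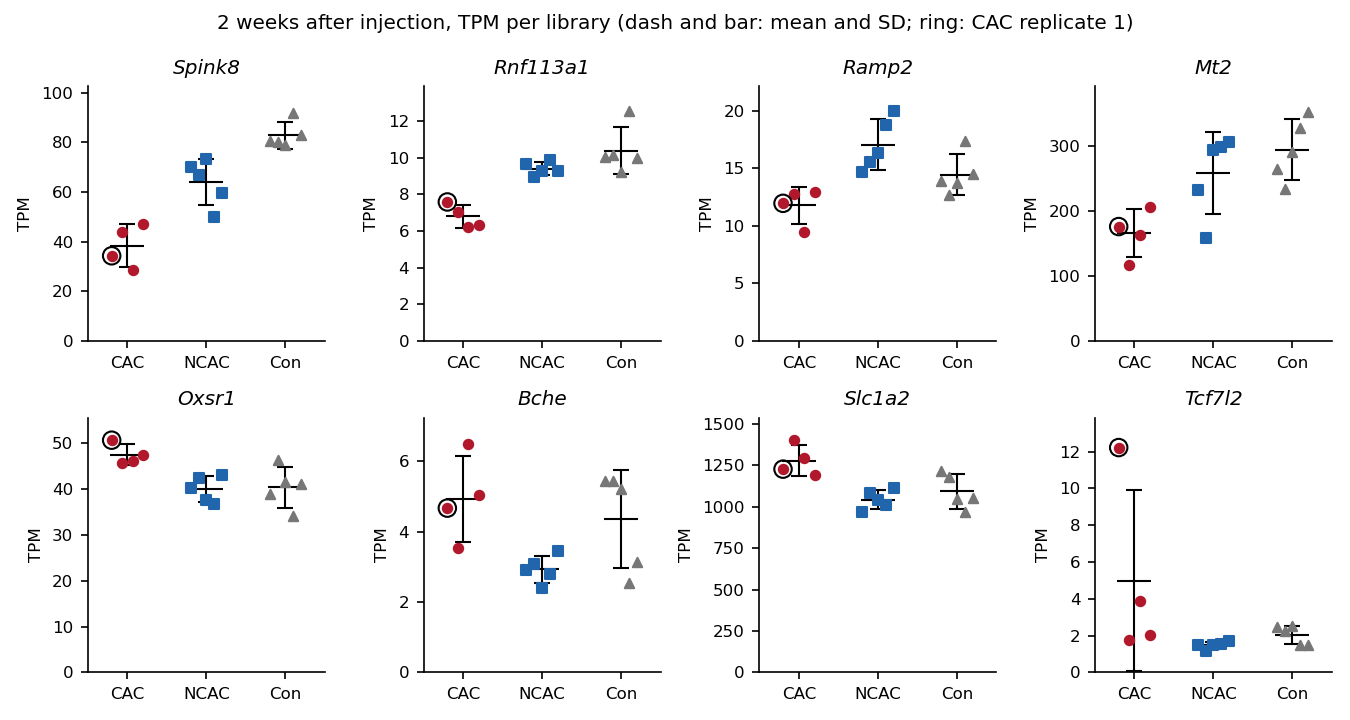
TPM of 8 genes in each library at 2 wk, with CAC left of NCAC and Con; each point is a library, the dash and bar are the group mean and SD, and CAC replicate 1 is ringed. Spink8, Rnf113a1 and Ramp2 are lower in all 4 CAC libraries than in any NCAC library, Oxsr1, Bche and Slc1a2 are higher, and the Tcf7l2 difference is widest in CAC replicate 1 at 12.2 TPM.

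The gene with the smallest p of all, Tcf7l2, moved with the striatum and thalamus markers of CAC replicate 1. It encodes a transcription factor of Wnt signalling that marks the thalamus, and had 12.2, 1.77, 3.88 and 2.05 TPM in CAC against 1.51, 1.16, 1.49, 1.54 and 1.68 TPM in NCAC. The groups did not overlap, and the difference was 1.11 ± 0.25 (unadjusted p = 6.06e-05, adjusted p = 0.437 by limma), but 0.58 without CAC replicate 1. Tcf7l2 and Plekhg1 are themselves members of the thalamus list. Rab37, a small GTPase, was at 17.9 TPM in CAC replicate 1 and at 1.62 to 2.64 TPM in the other CAC libraries, and its difference was 1.13 ± 0.31, or 0.41 without that library. Amotl1, an angiomotin family member, was alike, with 0.66 ± 0.17 over all libraries and 0.28 without replicate 1. Plekhg1 (0.79 ± 0.21, or 0.29), Mcf2, a guanine nucleotide exchange factor (0.53 ± 0.13, or 0.30), and Grid2ip, a scaffold of delta glutamate receptors (1.00 ± 0.26, or 0.64), also had their highest level in that library.

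Marker lists put this library's weight on the comparison in numbers. Of 12 thalamus markers, 11 were higher in CAC at an unadjusted p under 0.05, with a median of 0.77; without CAC replicate 1 there were 2 and the median was 0.24. Of 12 striatum markers, 4 were higher with a median of 1.07, and without that library 0 with 0.18. Of 10 neocortex markers, 4 were higher with a median of 0.17, and without it 0 with 0.16. The choroid plexus markers had a median of 0.23, and 0.98 without that library, with 0 of 12 at an unadjusted p under 0.05 in either fit. Ttr, the transthyretin of choroid plexus, had 101.5, 5498, 9580 and 3028 TPM in CAC and 160.8, 1194, 3451, 707 and 2584 TPM in NCAC. In bulk tissue, fewer cells of a type and less RNA per cell cannot be told apart, and this holds for every list described here.

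The lists of genes were chosen with earlier results of these data known, so each is described by its counts and its median, beside 0.02 over all genes tested. No member of any of the 54 lists passed the adjusted threshold by limma, and the counts that follow are at an unadjusted p under 0.05, against 5.01% of all genes higher and 1.93% lower on the TPM scale.

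Most genes induced by glucocorticoids had a negative difference. The list of 28 genes had a median of -0.27, also without CAC replicate 1, with 3 of 28 members above 0. Its mean level (log2) was 4.00 to 4.17 in the CAC libraries, below 4.23 to 4.52 in every NCAC library, with 3.97 to 4.40 in Con spanning CAC and part of NCAC. Only Mt1 and Mt2 passed the unadjusted limit, both lower, and without that library Mt2 and Tsc22d3, a leucine zipper protein, at -0.64. Mt2, a metallothionein that binds zinc and copper, had 176, 117, 163 and 206 TPM in CAC and 232, 157, 294, 298 and 305 TPM in NCAC, a difference of -0.62 ± 0.27 (interval -1.16 to -0.09, unadjusted p = 0.0234, adjusted p = 0.68 by limma). NCAC replicate 2 lay within the CAC range, as it did for Mt1 with 144.5 TPM, against 133, 162, 217 and 320 TPM in CAC and 374.5, 262, 415 and 401 TPM in the other NCAC libraries. Mt1 differed by -0.60 ± 0.28, and by -0.41 without CAC replicate 1. Fkbp5, a cochaperone of the glucocorticoid receptor, had 33.1, 41.2, 32.3 and 27.7 TPM in CAC and 41.8, 48.5, 35.3, 36.3 and 43.9 TPM in NCAC, a difference of -0.29 ± 0.21 (-0.71 to 0.12). Klf15, a transcription factor of amino acid and lipid use, differed by -0.36 ± 0.18 (-0.72 to 0.00). The receptor itself, Nr3c1, lay on the other side with 0.21 ± 0.10 (0.01 to 0.41).

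Genes of fasting and lipid fuel had a median of 0.08 over 19 tested. Fabp3, a carrier of fatty acids, was lower at an unadjusted p under 0.05. Fabp3 differed by -0.21 ± 0.09 (interval -0.39 to -0.04) and overlapped between the groups. Etnppl, a phosphoethanolamine lyase of astrocytes, had 6.18, 1.92, 3.69 and 3.18 TPM in CAC and 0.893, 3.69, 0.572, 1.19 and 1.38 TPM in NCAC, where replicate 2 alone reached the CAC range. The difference was 1.13 ± 0.57 (-0.01 to 2.26, unadjusted p = 0.052 by limma). CAC replicate 1 had the highest value. With a library left out the difference was 0.88 to 1.43, and with the thalamus and striatum marker levels as covariates 0.50. Among 17 genes of insulin, IGF and FoxO signalling, Sesn3, a sestrin (0.28 ± 0.10), and Fbxo32, the ubiquitin ligase known from muscle wasting (0.42 ± 0.17), were higher. They differed by 0.19 and 0.27 and missed the limit without CAC replicate 1, where Fbxo32 was at 20.6 TPM against 12.7 to 14.03 TPM in the other CAC libraries.

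All 15 markers of myelinating oligodendrocytes had a positive difference, with a median of 0.36, and 0.29 without CAC replicate 1; 4 passed the unadjusted limit, and 1 without that library. With the thalamus and striatum marker levels as covariates, a fit added after the data were seen, the median was 0.16. Tspan2, a tetraspanin of the oligodendrocyte lineage, had 109, 116, 97.5 and 122 TPM in CAC and 79.9, 103, 64.9, 74.6 and 109 TPM in NCAC, a difference of 0.38 ± 0.15 (interval 0.09 to 0.68). Trf, transferrin, differed by 0.54 ± 0.26, Cnp, a myelin enzyme, by 0.36 ± 0.18 and Mobp, a myelin structural protein, by 0.38 ± 0.19. The mean level of the list (log2) was 6.76 to 7.26 in CAC, 6.33 to 7.01 in NCAC and 6.45 to 7.07 in Con, so the groups overlapped.

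Astrocyte, microglia and endothelial lists had medians of 0.04 to 0.06. Homeostatic astrocyte genes had a median of 0.06 over 14 members, with Slc1a2 alone past the unadjusted limit, and without CAC replicate 1 also Sox9, a transcription factor of glia. Reactive astrocyte genes had 0.04 over 14 with 0 past the limit, and 1 lower without that library. Homeostatic microglia genes had a median of 0.04 over 14, and Sall1, a transcription factor of microglia, was higher by 0.20 ± 0.10; without that library Sall1 missed the limit and Tyrobp, an adaptor of microglial receptors, was lower by -0.44. Cx3cr1, the fractalkine receptor of microglia, had 55.7, 49.8, 51.1 and 49.8 TPM in CAC and 48.9, 37.8, 42.2, 40.9 and 47.0 TPM in NCAC, without overlap but with an interval of -0.07 to 0.57. Of 18 endothelial genes, Flt1, a receptor of VEGF, was higher without overlap by 0.27 ± 0.11, and the median was 0.04; without CAC replicate 1 no member passed the limit. Lists of the vessel wall and meninges lay further above 0. Of 10 genes of pericytes and smooth muscle, Abcc9 (0.25 ± 0.11), Vtn (0.34 ± 0.15) and Pdgfrb (0.25 ± 0.12) were higher, with a list median of 0.15. Without CAC replicate 1, 2 of the 3 passed the limit and the median was 0.20. Genes of meningeal fibroblasts had a median of 0.19 over 12, and 0.31 without that library, with 0 past the limit in either fit. The choroid plexus markers given above also had medians above 0, and their part in these values was not tested.

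Immune genes gave no call, and the lists lay on both sides of 0. Complement genes had a median of 0.15 over 11, and 0.30 without CAC replicate 1. C4b, a component of the classical pathway, had 37.2, 51.0, 37.8 and 59.6 TPM in CAC and 35.8, 21.8, 29.5, 35.7 and 41.5 TPM in NCAC, a difference of 0.50 ± 0.24 (interval 0.02 to 0.97). Genes of antigen presentation by MHC class I had a median of -0.15 over 11. H2-D1, a class I heavy chain, had 9.33, 7.67, 15.6 and 16.1 TPM in CAC and 34.4, 12.8, 37.9, 20.3 and 35.4 TPM in NCAC, a difference of -1.14 ± 0.45 (-2.04 to -0.23, adjusted p = 0.662 by limma). NCAC replicate 2 overlapped CAC, and Con was itself split, with 9.31 and 9.74 TPM in replicates 1 and 5 and 27.1 to 29.6 TPM in the other 3. H2-D1 shares sequence with other class I genes, so its level is uncertain. Interferon-stimulated genes had a median of -0.19 over 18 with 0 past the unadjusted limit. The IL6 and STAT3 response, a pathway of the acute phase in cachexia, had a median of 0.03 over 19, with Pim1, a kinase gene, higher by 0.35 ± 0.15 (0.05 to 0.65), and 0 members past the limit without CAC replicate 1.

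Apart from CA1, where 1 of 10 members had a positive difference, the medians of neuronal lists lay near 0. Those of CA1 (-0.15, and -0.06 without CAC replicate 1), dentate granule cells (-0.05), CA2 and CA3 (0.015), glutamate receptors (0.012), GABA transmission (0.005) and presynaptic release (-0.003) held 4 members past the unadjusted limit in all: Spink8, Amigo2 and Gabra5 lower and Gad1 higher. Amigo2, an adhesion protein of CA2 neurons, differed by -0.41 ± 0.17 and Gabra5, a GABA receptor subunit, by -0.23 ± 0.10. Gad1, an enzyme of GABA synthesis, differed by 0.23 ± 0.09, and by 0.12 without CAC replicate 1, where Amigo2, Gabra5 and Gad1 missed the limit and Pvalb, a calcium buffer of interneurons, was lower by -0.28. Of 17 immediate early genes 1 had a positive difference, and the median was -0.10 with 0 past the unadjusted limit. Arc had 53.7, 60.2, 61.3 and 112 TPM in CAC and 71.6, 123, 136, 127 and 75.8 TPM in NCAC (-0.58 ± 0.37, interval -1.32 to 0.16). Grp, gastrin-releasing peptide, was the single neuropeptide of 16 past the limit, with 7.87, 9.64, 8.20 and 13.3 TPM in CAC and 15.8, 10.4, 19.4, 12.5 and 14.9 TPM in NCAC (-0.56 ± 0.20).

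Clock genes lay on both sides of 0. Per2, a repressor of the clock, had 28.4, 30.7, 21.4 and 25.7 TPM in CAC and 40.7, 37.9, 28.9, 35.7 and 35.5 TPM in NCAC, a difference of -0.43 ± 0.17 (interval -0.78 to -0.08), and Dbp, an output of the clock, differed by -0.43 ± 0.19. Arntl, the activator of the clock, had 42.5, 29.9, 38.1 and 43.0 TPM in CAC and 30.6, 34.7, 34.2, 29.7 and 23.9 TPM in NCAC (0.32 ± 0.11, interval 0.10 to 0.54). Rora was higher by 0.55 ± 0.16, but at 49.0 TPM in CAC replicate 1 and 15.98 to 18.3 TPM in the other CAC libraries, and by 0.17 without it. The median of the 18 clock genes was -0.02, with 2 higher and 2 lower past the unadjusted limit. Without CAC replicate 1 the median was -0.08, with Arntl higher and 4 lower, Per2, Dbp, Bhlhe41 and Ciart. The time of day of tissue collection is not given in the labels.

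**Figure D4:**
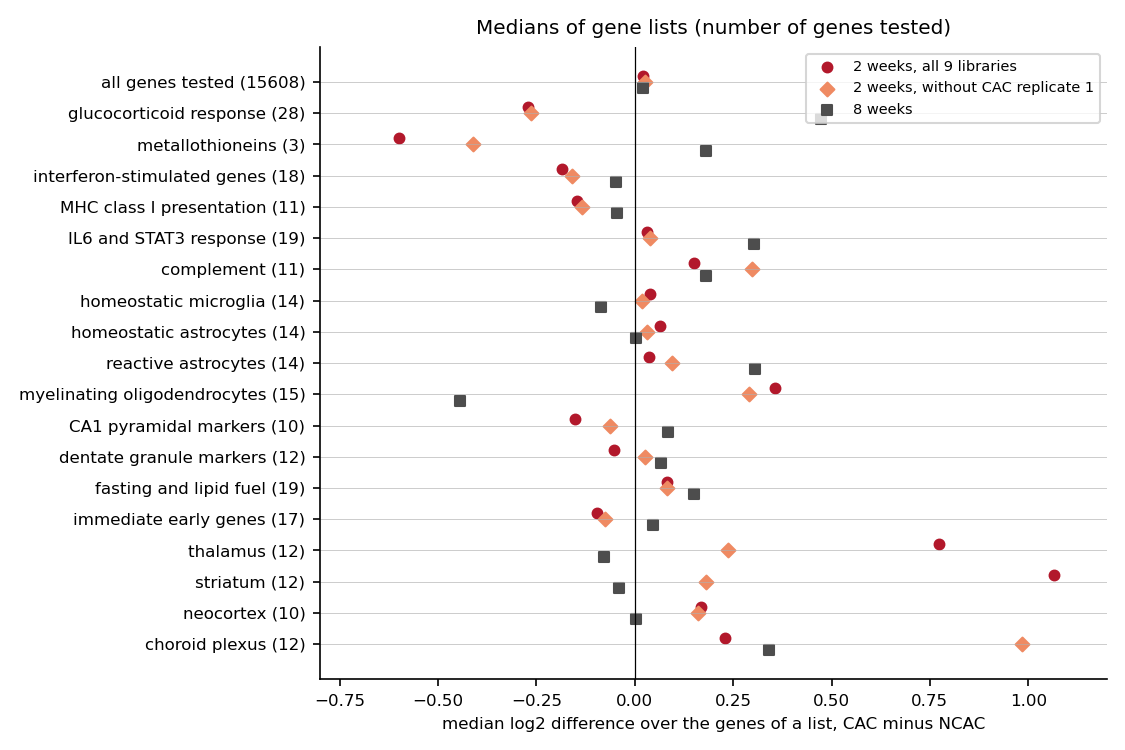
Median difference CAC minus NCAC (log2) over the tested members of each list, at 2 wk with all libraries, at 2 wk without CAC replicate 1 and at 8 wk. The glucocorticoid list lies at -0.27 at 2 wk and 0.47 at 8 wk, the myelin list at 0.36 and -0.45, and the thalamus list at 0.24 without CAC replicate 1 and 0.77 with it.

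Beside the mock-injected mice, CAC and NCAC at 2 wk are given side by side, since they share the Con libraries; the direct comparison of the tumour groups called 0 genes, as above. CAC against Con called 577 genes (3.7%), 268 higher (1.72%) and 309 lower (1.98%). Voom called 49 higher and 243 lower, median-of-ratios scaling gave 75 higher and 425 lower, and removal of GC and length trends 48 higher and 115 lower. With the thalamus and striatum covariates the count was 0. The count was 4 (0.0256%) without CAC replicate 1, 33 without CAC replicate 2 and 1279 without CAC replicate 5. The 4 were Spink8 (-1.08, adjusted p = 0.0112 by limma), Rnf113a1 (-0.63), Pantr1, a noncoding RNA (-0.70), and Vps13b, a Golgi protein (0.65). NCAC against Con called 0 genes (0%), with 1517 at an unadjusted p under 0.05 (9.72%), 661 of that kind without NCAC replicate 2, and 0 called by voom. Spink8 differed from Con by -1.12 ± 0.17 in CAC (adjusted p = 0.000597 by limma) and by -0.38 ± 0.16 in NCAC (adjusted p = 0.46). Rnf113a1 differed from Con by -0.57 ± 0.12 in CAC (adjusted p = 0.0137) and by -0.13 ± 0.11 in NCAC.

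Relative to Con, the lists were placed as follows. The glucocorticoid list had a median of 0.06 in CAC against Con and 0.28 in NCAC against Con. The myelin list had 0.21 and -0.16 in the same comparisons. Metallothioneins lay below Con in both, with medians of -1.14 in CAC and -0.55 in NCAC over 3 genes. Per2 differed from Con by 0.03 in CAC and by 0.46 in NCAC. Bche differed from Con by 0.19 in CAC and by -0.45 in NCAC, and Ramp2 by -0.29 in CAC and 0.23 in NCAC.

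The same contrast at later times rests on other libraries. It called 2 genes at 4 wk (0.0128%), Otof and Bzrap1, 276 at 6 wk (1.77%) and 285 at 8 wk (1.83%), of which 197 were higher in CAC at 8 wk (1.26%) and 88 lower (0.564%). Of the 197, 86 (43.7%) had a positive difference at 2 wk, with a median of 0.38 at 8 wk and -0.02 at 2 wk, while 57.6% of all genes tested had a positive one. Of the 88, 25 (28.4%) had a negative difference at 2 wk, with medians of -0.56 at 8 wk and 0.11 at 2 wk. Genes called at 6 wk were more often on the same side. Of the 207 higher (1.33% of all genes), 156 (75.4%) had a positive difference at 2 wk, beside 57.6% of all genes tested. Of the 69 lower (0.442% of all genes), 48 (69.6%) had a negative one. Their medians at 2 wk were 0.06 and -0.05. At an unadjusted p under 0.05 by limma, 14 of the 207 and 4 of the 69 were on the same side at 2 wk, and 0 on the other. Over all genes, 5.01% were higher and 1.93% lower at that limit. These shares are descriptions and carry no test.

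The difference between the differences was tested directly. The contrast at 2 wk minus that at 4 wk called 0 genes (0%; 1032 at an unadjusted p under 0.05, 6.61%; 0 by voom), and minus that at 6 wk 0 genes (0%; 1273, 8.16%; 0 by voom). Minus that at 8 wk, limma called 37 genes (0.237%), 17 with a higher (0.109%) and 20 with a lower (0.128%) difference at 2 wk, and voom 74. All 37 kept their sign without CAC replicate 1, but 1 of them passed the threshold there (0.00641%), and 1 without CAC replicate 5. Leaving out NCAC replicates 1, 2 or 4 gave 9, 9 and 8 calls, and leaving out CAC replicate 2 gave 123.

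Spink8 passed with each of the 9 libraries left out in turn. Its difference was -0.74 at 2 wk and 0.59 at 8 wk (adjusted p = 0.0285 by limma), and the change between them was -1.33 ± 0.23 (adjusted p = 0.00744, and at most 0.0455 with any of the 9 libraries left out). With the thalamus and striatum marker levels as covariates the change was -1.17 with an adjusted p of 0.0886 by limma. Mean levels in CAC were 38.4 ± 8.54, 68.4 ± 21.6, 90.4 ± 18.5 and 104 ± 11.6 TPM at 2, 4, 6 and 8 wk (SD, n = 4, 5, 5 and 7). In NCAC they were 64.0 ± 9.35, 79.2 ± 4.01, 69.8 ± 12.5 and 69.7 ± 12.3 TPM (n = 5, 5, 4 and 5), and in Con 82.8 ± 5.30, 64.3 ± 13.5, 72.4 ± 6.78 and 77.2 ± 10.1 TPM (n = 5 each). CAC thus stood lowest of the groups at 2 wk and highest at 8 wk.

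**Figure D5:**
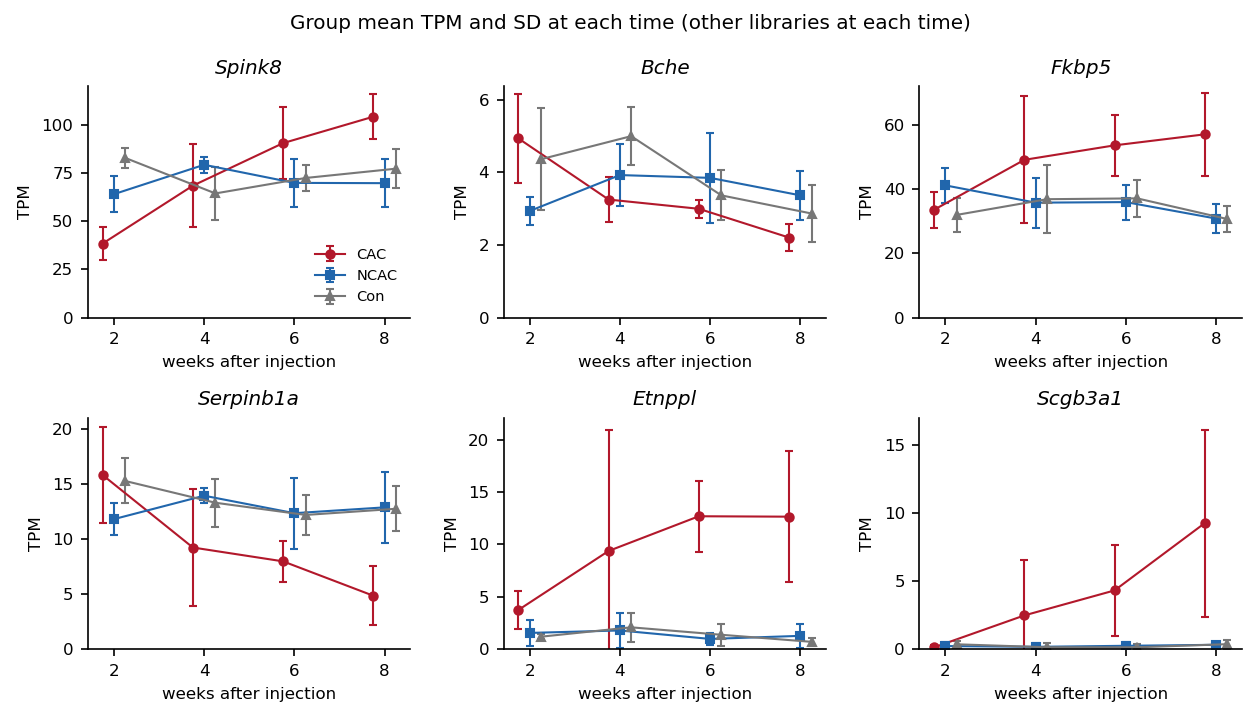
Mean TPM with SD (bars cut at 0) of 6 genes at 2, 4, 6 and 8 wk in CAC, NCAC and Con (n = 4 to 7 libraries a group). Spink8 in CAC has a mean of 38.4 TPM at 2 wk and 104 TPM at 8 wk, while NCAC has 64.0 and 69.7 TPM.

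The other genes whose contrast changed between 2 and 8 wk lay on both sides. Higher in CAC at 8 wk, with an interval at 2 wk that held 0, were Scgb3a1, a secretoglobin (-0.16 ± 0.57 at 2 wk, 3.13 at 8 wk), Rtp1, a receptor transporter (-0.61 ± 0.52 and 2.41), Tmem252 (-0.25 ± 0.38 and 2.02) and Fas, a death receptor (-0.21 ± 0.22 and 1.16). Scgb3a1 was at 0.174, 0, 0 and 0.35 TPM in CAC and 0, 0, 0.30, 0.163 and 0.643 TPM in NCAC at 2 wk, against a mean of 9.26 ± 6.87 TPM in CAC at 8 wk (SD, n = 7). Il6ra, a receptor chain for IL6, differed by -0.09 at 2 wk and 0.56 at 8 wk. Above 0 at 2 wk and below 0 at 8 wk were Serpinb1a, a protease inhibitor (0.38 ± 0.26 and -1.42), Enpp6, an enzyme of newly formed oligodendrocytes (0.41 ± 0.23 and -1.01), Lpar1, a lysophosphatidic acid receptor (0.50 ± 0.23 and -0.78), and Mcam, an adhesion protein of vessels (0.47 ± 0.20 and -0.78). So were Bche (0.64 and -0.51), Nes, the filament of progenitors (0.24 ± 0.18 and -0.90), and, the other way round, Atp2c2, a calcium pump of the Golgi (-0.68 ± 0.30 and 0.97), and Fkbp5 (-0.29 and 0.85, change -1.15, adjusted p = 0.0481 by limma). At 2 wk, Serpinb1a, Enpp6, Nes and Fkbp5 had an unadjusted p above 0.05 by limma, so their sign there is uncertain. Bche missed the adjusted threshold at 8 wk (adjusted p = 0.0828 by limma).

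Medians of several lists lay on opposite sides of 0 at 2 and 8 wk, and the change of a list was not tested. The glucocorticoid list had a median of -0.27 at 2 wk and 0.47 at 8 wk. At 8 wk 11 of its 28 genes were higher past the adjusted threshold and 0 lower, against 1.26% and 0.564% of all genes. The myelin list had 0.36 at 2 wk and -0.45 at 8 wk, where 4 of 15 were lower, against 0.564% of all genes. Smaller lists did so without a member past the adjusted threshold at 8 wk, such as meningeal fibroblasts with 0.19 at 2 wk and -0.39 at 8 wk, pericytes and smooth muscle with 0.15 and -0.19, and the 3 metallothioneins with -0.60 and 0.18. For the IL6 and STAT3 list the medians were 0.03 and 0.30, with 8 of 19 higher at 8 wk, against 1.26% of all genes. The lists were chosen with earlier results of these data known, so their 8 wk counts are no separate support.

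Of 24 genes taken from earlier results of these data on cachexia, 0 passed at 2 wk (0% of all genes). By limma, 0 of the 24 had an unadjusted p under 0.05, 12 were above 0, and the median was -0.04. At 8 wk 13 were higher and 8 lower past the threshold, against 1.26% and 0.564% of all genes. Because the 24 were chosen with earlier results of these data known, the 8 wk counts are no separate support. The gene with the smallest p at 2 wk among the 24 was Etnppl. Gkn3, a gastrokine of arterial endothelium, had 7.18, 5.53, 9.33 and 5.75 TPM in CAC and 5.85, 6.65, 12.7, 9.32 and 6.52 TPM in NCAC at 2 wk (-0.20 ± 0.41, interval -1.02 to 0.63), against a difference of -2.40 at 8 wk. Plin4, a lipid droplet protein, differed by -1.03 ± 0.75 (-2.53 to 0.47) and Hif3a, a factor of the hypoxia-inducible family, by -0.88 ± 0.50 (-1.89 to 0.14), both lower at 2 wk and above 0 at 8 wk, with 2.56 and 1.62. Lcn2, lipocalin 2, was at most 0.401 TPM in CAC and 0.382 TPM in NCAC at 2 wk. The intervals of these genes are wide, and a difference of up to about their bounds was not excluded by these 9 libraries.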

How the data were processed

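RNA-seq libraries of mouse hippocampus were analysed from the table the authors deposited, which holds TPM for 47643 gene symbols in 60 libraries. Per the labels' protocols, RNA was extracted with Trizol, made into libraries with a stranded mRNA kit from TruSeq and sequenced on a NovaSeq. The build is mm10, per the submitters' processing notes. Aligner, counter, annotation and use of strand were not given in the sources used here. Deposited TPM are relative to each library's total, so a few abundant genes can shift all others, and near-identical genes can exchange reads. Within 0.02 of a read plus 1e-06 of the count, whole reads were recovered for all 24227 symbols above 0 (67.2% at the annotated gene length), at 34728284 to 38179252 reads in the 9 libraries compared and 32388160 to 42047082 in the series. Read depth sets only part of the error; the spread between libraries sets the SE.

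Limma 3.58.1 in R 4.3.3 was fitted with an intensity trend to log2(TPM + 0.5), with 12 group means over 60 libraries. Exact permutation p-values of single genes are at the smallest possible, 0.0159, wherever the groups do not overlap, and are not used. The method was tested on simulated data. The 12 genes with the smallest p in each direction were named as values, leaving out predicted genes and those averaging below 1 TPM in both groups, with the 3 members of smallest p of each described list, the 24 cachexia genes and the 5 largest changes against 8 wk in each direction; genes named besides these (such as Mobp, Dbp, Fkbp5, Nr3c1, Il6ra, Sox9, Tyrobp, Tsc22d3 and Pvalb) were chosen after their values were seen. The comparison, the genes and the lists were chosen with earlier results of these data known. One result past the unadjusted limit is not reported here. Gene positions are from the GENCODE annotation of mm10.

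Alternatives were other pseudocounts, filters, scaling, compared groups alone, robust variance, removal of GC and length trends (splines of 5 degrees of freedom, 96.5% of genes), voom, a replicate block and each library left out. Covariates for thalamus and striatum, and leaving out libraries rich in striatum genes, were added after the data were seen. Labels give no batch. Figures were drawn with matplotlib 3.10.9.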

Additional observations from a re-analysis of the deposited data

Results flagged for a closer look

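A single library stood far from the rest of its group at 2 wk in 24 cases among the genes named. Chance gives about 1 in 20 groups, but many of these genes were named for their values in the same libraries. That rate is therefore no measure of the 24 cases. CAC replicate 1 was the high library for 10 genes, with the other CAC libraries given after it (TPM): Plekhg1 at 51.9 against 11.0 to 13.8, Rab37 at 17.9 against 1.62 to 2.64, Mcf2 at 9.95 against 4.60 to 5.32, Amotl1 at 42.2 against 12.4 to 16.4, Prkcd at 149 against 27.7 to 47.9, Six3 at 10.7 against 0.831 to 1.17, Adcy5 at 220.1 against 58.8 to 67.3, Drd2 at 70.3 against 2.92 to 5.61, Rora at 49.0 against 15.98 to 18.3 and Fbxo32 at 20.6 against 12.7 to 14.03. Prkcd, Rora and Plekhg1 are on the thalamus list and Six3, Adcy5 and Drd2 on the striatum list.

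In CAC replicate 4 the red cell genes were high, Hba-a2 at 54.2 TPM against 1.09 to 7.38 TPM and Alas2 at 5.15 TPM against 3.37 to 3.62 TPM. In CAC replicate 5, Arc was at 112 TPM against 53.7 to 61.3 TPM and Sst, somatostatin, at 357 TPM against 126.1 to 156 TPM. NCAC replicate 2 had the highest Etnppl (3.69 TPM against 0.572 to 1.38 in the other NCAC libraries), Il4ra (2.49 against 1.72 to 1.93), Gad1 (199.7 against 162 to 168) and Gad2 (143 against 114.5 to 122). NCAC replicate 3 had the highest Ptn (235 TPM against 202 to 210) and the lowest Plekhg1 (7.54 against 10.6 to 11.8). NCAC replicate 4 had the lowest Mettl5os (0.584 TPM against 1.13 to 1.21) and Kdr (6.82 against 7.84 to 8.26), and NCAC replicate 1 the highest Vegfa (59.5 against 43.4 to 46.2) and the lowest Slc6a13 (6.00 against 11.2 to 12.99).

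The difference CAC minus NCAC at 2 wk departed from that at 8 wk, by the limma test of the change itself, by 1.80 (log2) for Serpinb1a, 1.42 for Enpp6, 1.27 for Lpar1, 1.25 for Mcam and 1.15 for Bche, and by -3.29 for Scgb3a1, -3.02 for Rtp1, -2.27 for Tmem252, -1.64 for Atp2c2 and -1.37 for Fas. The adjusted p-values of these 10 genes lay between 0.0176 and 0.0496, and without CAC replicate 1 between 0.0577 and 0.132.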

How the results depend on the processing

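With 4 and 5 libraries a group, the median SE was 0.10 (log2). A difference must be several times its SE to pass the adjusted threshold, and Tcf7l2 at 1.11 did not pass (adjusted p = 0.437 by limma). The count of genes called between CAC and NCAC at 2 wk was 0 lower under every alternative run and 0 to 2 higher with a library left out (2 without CAC replicate 2). The smallest adjusted p was 0.0514 in the fit of the compared groups alone. With the replicate block the count was 0, with 923 genes at an unadjusted p under 0.05; same-numbered libraries correlated by -0.15 to 0.28 over 4 pairs, 1 of 4 CAC libraries correlated best with its own number, and the numbers were not taken as pairing. Of the other results for single genes and lists, 3867 values kept direction and side of the adjusted threshold, or moved within the spread of the list. The 10 genes named for the change against 8 wk missed the threshold in 85 cases, and all 10 missed it without CAC replicate 1. These cases belong to the 10 genes alone, so the 3867 values are no measure of how rare they were. Grid2ip and Tcf7l2 passed the threshold in 1 case each, and 12 list medians moved by more than the spread.

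The counts called for the change between 2 and 8 wk were 17 higher and 20 lower, and with a library left out 0 to 69 and 1 to 54. They were 10 and 6 with no filter, 34 and 50 with median-of-ratios scaling, 49 and 63 with GC and length trends removed, 36 and 38 with voom, 0 and 1 with covariates, and 8 and 11 without striatum-rich libraries; the compared groups alone gave 51 lower. Between CAC and Con at 2 wk, 577 genes became 298 with no filter, 163 with GC and length trends removed, 292 with voom, 0 with covariates and 4 without striatum-rich libraries, and 4 to 1279 with a CAC or NCAC library left out. Between NCAC and Con, and for the change against 4 and 6 wk, the count was 0 under every alternative run. Between CAC and NCAC, 2 genes at 4 wk became 0 with no filter, in the compared groups alone, with covariates and without striatum-rich libraries, 6 with median-of-ratios scaling and 21 with GC and length trends removed. The 276 at 6 wk became 174 with no filter, 96 in the compared groups alone, 429 (263 higher, 166 lower) with GC and length trends removed and 452 without striatum-rich libraries, and voom and median-of-ratios scaling split them into 151 and 101 and into 159 and 107. The 285 at 8 wk became 83 in the compared groups alone, 452 (249 higher, 203 lower) with GC and length trends removed, 441 with covariates and 509 without striatum-rich libraries. Except for the fits with fewer libraries or other genes tested, the cause was not tested.

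Some differences at 2 wk turned sign, among them those of Trh (0.92), Amotl1 (0.66), Rora (0.55), Kcne2 (-0.48) and Pcp4 (0.41). Rora is on the thalamus list, from which a covariate was made. With covariates they were -0.028 for Amotl1, 0.12 Myoc, -0.003 Phyhd1, -0.049 Ptn, -0.076 Ly6a, -0.10 Vegfa, -0.23 Apln, 0.19 Hbb-bt, -0.17 Pcp4, -0.05 Jak2, -0.037 Trh, -0.021 Inhba, -0.022 Gad2 and -0.005 Rora. Without striatum-rich libraries they were 0.12 Myoc, -0.01 Ptn, -0.069 Vegfa, -0.19 Apln, 0.36 Kcne2 and -0.10 Pcp4, and with GC and length trends removed -0.001 Phyhd1, -0.03 Ptn, -0.015 Vegfa, -0.032 Apln and 0.048 Bax. Median-of-ratios scaling and voom gave -0.009 for Ptn and -0.02 for Apln, and the replicate block 0.08 for Myoc and -0.036 for Apln. With a library left out the range was -0.45 to 0.23 for Myoc, -0.07 to 0.11 Phyhd1, -0.047 to 0.15 Lcn2, -0.01 to 0.054 Ptn, -0.31 to 0.028 Scgb3a1, -0.071 to 0.20 Ly6a, -0.069 to 0.13 Vegfa, -0.24 to 0.004 Dcc, -0.19 to 0.13 Apln, -1.02 to 0.36 Kcne2, -0.12 to 1.02 Prlr, -0.10 to 0.73 Pcp4 and -0.32 to 0.014 Gadd45a.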

Other observations

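Lists not described above held no member past the adjusted threshold by limma between CAC and NCAC at 2 wk. The values of some of them, but not all, are given beside a median of 0.02 over all genes tested. Nuclear genes of oxidative phosphorylation, which build the respiratory chain, had a median of -0.07 over 22 genes, and genes of cytosolic ribosomal proteins -0.12 over 27, with 0 past an unadjusted p of 0.05 in either list and 6 and 4 members above 0. Without CAC replicate 1, 3 genes of oxidative phosphorylation and 1 ribosomal protein gene were lower past that limit. Against Con, 7 of the 22 and 6 of the 27 were lower in CAC past the adjusted threshold, where 1.98% of all genes were. Without CAC replicate 1 the count was 0 in either list, where 0.0256% of all genes were called in either direction. The length trends of the libraries, given above with Pdcd5 and Lsm7, were steeper in CAC replicates 1 and 2 and in NCAC replicate 2, and their part in these values was not tested. Genes of cholesterol synthesis and transport had a median of 0.03 over 20, with Cyp51, a demethylase of the pathway, at 0.19 ± 0.11.

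Heat shock chaperones had a median of -0.03 over 13, and Hspa1b, an inducible HSP70, was lower by -0.78 ± 0.32 (interval -1.41 to -0.14); without CAC replicate 1, 3 members were lower past the unadjusted limit. In the list of the unfolded protein response, Creld2, a chaperone of the endoplasmic reticulum, had a difference of -0.41 ± 0.16 and Chac1, an enzyme that cleaves glutathione, one of 0.34 ± 0.14, with a median of -0.05 over 15. Of 13 receptors for serotonin and noradrenaline, Htr1a differed by -0.30 ± 0.14 and Adra1b by 0.77 ± 0.22, and by -0.26 and 0.38 without CAC replicate 1, where both missed the limit.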
